A study of Mus musculus with 29 samples.

Results

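The insulin-like growth factor (IGF) axis was followed through 8 genes of mouse C2C12 cells: the ligands Igf1 and Igf2, the receptors Igf1r, Insr and Igf2r, the binding proteins Igfbp4 and Igfbp5, and the receptor adaptor Irs1. The genes were taken by their symbols in the deposited tables. They were 8 of the 15954 genes with a 3' end read, and 121 of their 130 listed poly(A) sites had a read, out of 96027 sites with a read. In the RNA-seq table they were 7 of 11734 genes, and Irs1 was not analysed in that assay. C2C12 is an established line of mouse myoblasts that fuse into muscle cells when serum is reduced. Every library came from C2C12 cells grown in DMEM with penicillin and streptomycin and separated into a membrane and a cytosol fraction. The 16 gradient libraries covered 8 groups of 2 replicates: membrane polysomes, membrane monosomes, cytosol polysomes and cytosol monosomes of differentiating cells, and the same 4 kinds of sample from proliferating cells. The medium label named 2% horse serum for the 4 differentiating polysome libraries, and 10% fetal bovine serum for every proliferating library. The 4 differentiating monosome libraries were also labelled with 10% fetal bovine serum although their status was differentiating. The values of the 8 genes between the fractions of differentiating cells and between the states are therefore also given for polysome libraries alone. Site calls, distal site shares, shares of the axis reads and polysome over monosome values were not computed without the differentiating monosome libraries. Values of other pathway genes are not given without them. The labels gave no time of differentiation. A further 8 libraries were whole membrane and cytosol fractions of proliferating cells that were untreated or exposed to 100 µg/ml puromycin for 0, 30 or 60 min, with 1 library per fraction and exposure. Another 2 were whole membrane and cytosol fractions of proliferating cells, and 3 RNA-seq libraries were the membrane, insoluble and cytosol fractions of proliferating cells.

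IGF1 and IGF2 are secreted peptides that bind the tyrosine kinase receptor IGF1R and, with isoform-dependent affinity, the insulin receptor INSR. IGF2R, the cation-independent mannose-6-phosphate receptor, carries IGF2 to lysosomes, and IGF-binding proteins hold the ligands outside the cell. Activated receptors phosphorylate adaptors such as IRS1, which recruit phosphoinositide 3-kinase. In skeletal muscle the axis acts on both the proliferation and the differentiation of myoblasts, and differentiating C2C12 cells are known to make IGF2 and IGFBP5. The ligands, binding proteins and receptors are made at the endoplasmic reticulum (ER), whereas IRS1 is a cytosolic protein without a signal peptide.

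The 3' end libraries were made by 3'READS+, which captures the end of each polyadenylated RNA next to its poly(A) tail. Their read counts are given as counts per 1000000 reads (CPM). In the CPM of single 3' end libraries the library totals were scaled by TMM normalization factors. Pooled ratios and the membrane to cytosol ratios of the puromycin series use the counted reads without these factors. A 3' end read count does not grow with transcript length, so CPM values can be set beside each other between genes. The gradient libraries held 2964852 to 8237846 counted reads, the puromycin libraries 5506600 to 11631401 and the other whole-fraction libraries 5881983 to 6150000. Muscle differentiation markers summed to between 4760 and 43954 CPM in the 8 differentiating libraries and to between 57.8 and 271 CPM in the 8 proliferating libraries, so the status label held for the monosome libraries too. Cell cycle markers summed to 122 to 322 CPM in differentiating and 563 to 1457 CPM in proliferating libraries. The differentiating replicates differed in these markers. Mylpf, a muscle marker, had 30683 and 5372 CPM in the first and second cytosol polysomes and 22813 and 4448 CPM in membrane polysomes. In monosomes it had 11364.5 and 2347 CPM (cytosol) and 8404 and 2663 CPM (membrane). Mki67, a cell cycle marker, was higher in the second replicates, with 19.9 and 48.2 CPM in cytosol polysomes. The part of this in the 8 genes was not tested. ER and lysosome markers summed to 11344 to 34430 CPM in membrane and 1186 to 6628 CPM in cytosol libraries of differentiating cells. In proliferating cells they summed to 12338 to 37644 CPM in membrane and 880 to 3687 CPM in cytosol libraries, so by these markers the fraction labels held. Cytosol markers summed to 11192 to 15138 CPM in membrane and 23273 to 71468 CPM in cytosol libraries of proliferating cells. In differentiating cells their sums overlapped, at 8950 to 43766 CPM in membrane and 15532 to 78004 CPM in cytosol libraries. The summed levels of the adipocyte, osteoblast, epithelial, leukocyte and endothelial marker lists were at most 1.47 CPM in any gradient library. Where a gene had 0 reads in a library, counting error allows up to 3 reads. The labels do not tie replicates to separate cultures, and p-values therefore reflect only how far these libraries spread, which may be technical.

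Igf1 and Igf2, the ligands, were higher in differentiating cells, and Igfbp4, a binding protein, rose with them. Igf1, which signals mainly through Igf1r, had a lowest, median and highest level of 3.01, 7.07 and 16.1 CPM over the 8 differentiating libraries, against 0, 0.333 and 0.697 CPM over the 8 proliferating libraries. The groups did not overlap. The totals were 361 reads in differentiating and 18 reads in proliferating libraries, a pooled ratio of 22.0 (95% exact interval 13.7 to 37.6, counting error only, as for all intervals here), and the fitted log2 fold change was 4.41 ± 0.41 (SE, adjusted p = 4.71e-06). Igf2, the fetal growth ligand of the pair, had 0.499, 4.54 and 13.7 CPM as its lowest, median and highest level in differentiating libraries, against 0, 0 and 0.161 CPM in proliferating libraries. It was read 217 times in differentiating libraries and 2 times in proliferating libraries, a pooled ratio of 119 (32.6 to 989), with an adjusted p of 0.000123. Both ligands entered the test only through differentiating libraries, 8 for Igf1 and 6 for Igf2, so their calls describe where the reads lay and do not add to a count over the axis. In bulk RNA, more cells of a type and more RNA per cell cannot be told apart.

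Igfbp4 encodes a soluble protein that binds IGFs and releases them when it is cleaved. Its lowest, median and highest level was 2.01, 8.11 and 14.2 CPM in differentiating libraries, against 0.482, 0.785 and 5.51 CPM in proliferating libraries. The groups overlapped: the first replicates of the proliferating cytosol monosomes and membrane polysomes, at 5.51 and 4.18 CPM, lay within the differentiating range. The log2 fold change was 2.38 ± 0.49 (SE, adjusted p = 0.00216). Between polysome libraries alone it was 2.05 with an adjusted p of 0.0777, and the Igfbp4 call was lost, while Igf1 (5.23, adjusted p = 0.000337) and Igf2 (adjusted p = 0.00476) passed there.

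The remaining 5 genes overlapped between the cell states and did not pass the test in the fit without replicate pairing. Igfbp5, a binding protein that is held in the extracellular matrix, had 2.72, 10.9 and 66.9 CPM in differentiating libraries and 1.77, 11.9 and 30.8 CPM in proliferating libraries (log2 fold change 0.81 ± 0.36, SE, adjusted p = 0.0933). Irs1, the adaptor, had 5.49, 14.4 and 21.8 CPM in differentiating libraries and 6.26, 18.9 and 61.9 CPM in proliferating libraries (-0.51 ± 0.20, adjusted p = 0.0622). With the replicate number as a block both passed, Igfbp5 as higher (0.70, adjusted p = 0.00201) and Irs1 as lower (-0.50, adjusted p = 0.00350) in differentiating cells. Igfbp5 also passed with DESeq2 (0.89, adjusted p = 0.0429), without the first proliferating cytosol monosome replicate (1.10, adjusted p = 0.0373) and without the first differentiating membrane monosome replicate (0.98, adjusted p = 0.0350). Irs1 also passed without the first differentiating cytosol polysome replicate (-0.65, adjusted p = 0.0278) or the second proliferating cytosol monosome replicate (-0.60, adjusted p = 0.0457). Igf1r and Insr, the signalling receptors, had log2 fold changes of -0.08 ± 0.31 (adjusted p = 0.862) and -0.08 ± 0.26 (adjusted p = 0.836), and both changed sign with other size factors. Igf2r, the clearance receptor, had 0.680, 1.39 and 2.67 CPM in differentiating libraries and 0, 1.23 and 7.52 CPM in proliferating libraries. Its fitted log2 fold change of 1.09 ± 0.48 (adjusted p = 0.0926) and its pooled read ratio of 0.739 (0.533 to 1.02) had opposite signs; the fit gives equal weight to each group, including the proliferating cytosol groups with 2 reads between them. Between polysome libraries alone none of these 5 passed: Igfbp5 was at 1.175 (adjusted p = 0.0675), Igf2r at 1.145 (adjusted p = 0.265), Irs1 at -0.15 (adjusted p = 0.791), Insr at -0.20 (adjusted p = 0.745) and Igf1r at 0.07 (adjusted p = 0.910).

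Of the 6 genes other than the ligands, 1 was higher (Igfbp4) and 0 lower in differentiating cells, where 16.3% of the 11176 genes tested were higher and 19.2% lower. With the replicate block 2 of these 6 were higher and 1 lower, against 24.8% and 30.5% of all genes. The median log2 fold change of all genes was -0.09, and DESeq2 size factors moved it to -0.00. The make-up of the axis differed between the states as a share of the reads of the 8 genes: Igfbp5 took 30.1% of them in differentiating and 20.9% in proliferating libraries, Irs1 16.8% in differentiating and 37.8% in proliferating libraries, and Igf1 10.4% in differentiating and 0.510% in proliferating libraries. The marker sums of muscle differentiation moved with the state in the same libraries, and their part in the ligand levels was not tested.

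**Figure D1:**
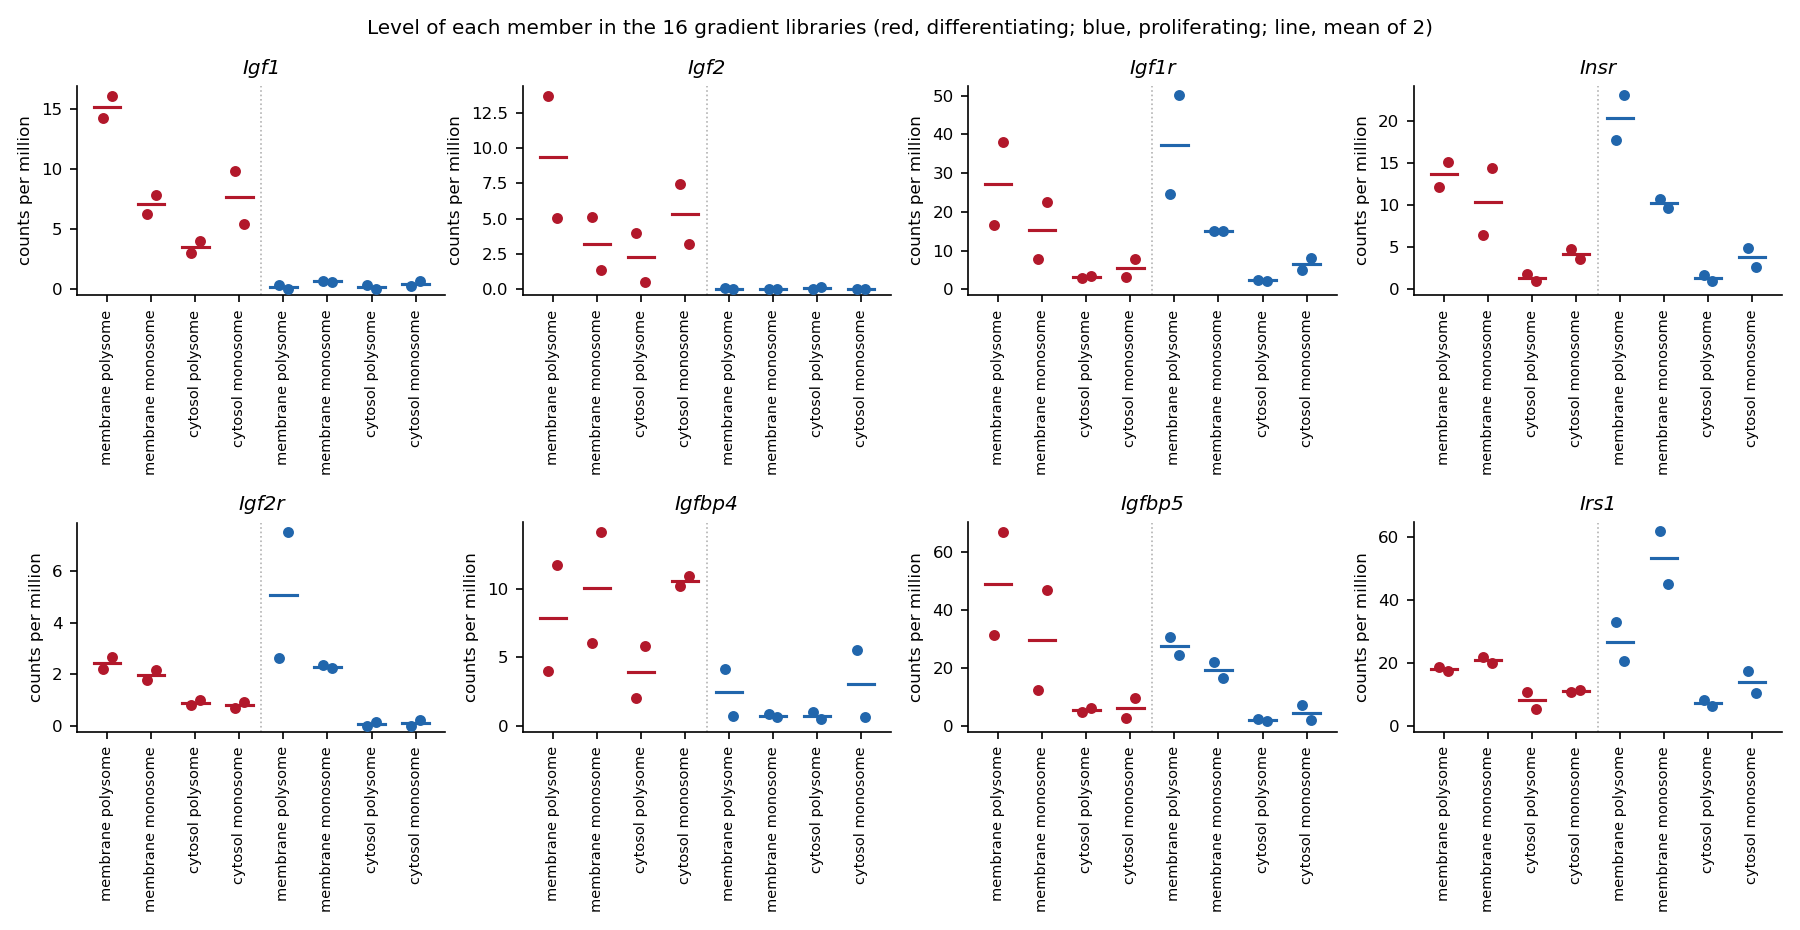
The plot of CPM by library shows the 8 genes in the 16 gradient libraries on a linear axis. Differentiating groups stand to the left of proliferating groups, with 1 point per library. Igf1 and Igf2 lie at 0.499 CPM or above in all 8 differentiating libraries and at 0.697 CPM or below in all 8 proliferating libraries, whereas the receptors, Igfbp5 and Irs1 vary mainly between membrane and cytosol.

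The membrane and cytosol libraries answer which of these mRNAs lay with the membrane-bound ribosomes. In proliferating cells the receptors Igf1r, Insr and Igf2r, the binding protein Igfbp5 and the adaptor Irs1 were higher in the membrane libraries. Igf1r, the IGF1 receptor, had 24.6 and 50.1 CPM in membrane polysomes and 15.0 and 15.2 CPM in membrane monosomes, against 2.36 and 2.25 CPM in cytosol polysomes and 4.96 and 8.18 CPM in cytosol monosomes. The membrane libraries averaged 26.2 ± 16.5 CPM and the cytosol libraries 4.44 ± 2.79 CPM (SD, n = 4 each), and the log2 fold change was 2.60 ± 0.44 (SE, adjusted p = 0.000426). Insr, the insulin receptor, averaged 15.3 ± 6.30 CPM in membrane and 2.57 ± 1.74 CPM in cytosol libraries (2.68 ± 0.37, adjusted p = 8.84e-05). Igf2r had 2.64 and 7.52 CPM in membrane polysomes and 2.37 and 2.24 CPM in membrane monosomes, against 0 and 0.161 CPM in cytosol polysomes and 0 and 0.221 CPM in cytosol monosomes. These were 96 membrane reads and 2 cytosol reads, a pooled ratio of 40.0 (10.8 to 335, adjusted p = 0.000185), and Igf2r entered the test only through membrane libraries.

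Igfbp5 had 30.8 and 24.4 CPM in proliferating membrane polysomes and 22.1 and 16.6 CPM in membrane monosomes, against 2.36 and 1.77 CPM in cytosol polysomes and 7.16 and 1.99 CPM in cytosol monosomes. Every membrane value was more than any cytosol value, with a log2 fold change of 2.92 ± 0.53 (SE, adjusted p = 0.000780). Irs1, the only one of the 5 whose protein has no signal peptide, had 32.9 and 20.5 CPM in membrane polysomes and 61.9 and 45.1 CPM in membrane monosomes, against 8.09 and 6.26 CPM in cytosol polysomes and 17.4 and 10.4 CPM in cytosol monosomes. Its membrane values, too, lay above its cytosol values, and the log2 fold change was 1.92 ± 0.29 (SE, adjusted p = 0.000184). The ligand Igf1 (0.34 ± 0.75, adjusted p = 0.771) and Igfbp4 (-0.12 ± 0.75, adjusted p = 0.929) did not pass, and Igf2, with 1 read in each fraction, has no fold. Igfbp4 had 4.18 and 0.734 CPM in membrane polysomes, 0.836 and 0.639 CPM in membrane monosomes, 1.01 and 0.482 CPM in cytosol polysomes, and 5.51 and 0.664 CPM in cytosol monosomes. Its replicates differed more than its fractions did, and between polysome libraries alone its value was 1.75 (adjusted p = 0.252), of the opposite sign. Apart from Igf2r, 4 of the other 7 genes were thus higher in the membrane libraries of proliferating cells and 0 were lower, where 23.2% of all genes tested were higher and 11.5% lower. The median log2 fold change of all genes was 0.17. Of all genes 2597 were higher and 1290 lower, and with DESeq2 size factors 2231 were higher and 1815 lower and the median of all genes was -0.00, while the same 4 genes and Igf2r passed.

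In differentiating cells the same comparison gave 4 genes that were higher in membrane libraries, Igf1r, Insr, Igfbp5 and Irs1, and 0 that were lower, where 14.2% of all genes were higher and 5.49% lower. Igf1r had 16.6 and 38.0 CPM in membrane polysomes and 7.80 and 22.6 CPM in membrane monosomes, against 2.81 and 3.49 CPM in cytosol polysomes and 3.06 and 7.72 CPM in cytosol monosomes. The lowest membrane library, at 7.80 CPM, lay just above the highest cytosol library, at 7.72 CPM, and the log2 fold change was 2.31 ± 0.44 (SE, adjusted p = 0.00227). Insr had 12.2 and 15.2 CPM in membrane polysomes and 6.46 and 14.4 CPM in membrane monosomes, against 1.81 and 0.998 CPM in cytosol polysomes and 4.76 and 3.63 CPM in cytosol monosomes. It averaged 12.1 ± 3.95 CPM in membrane and 2.80 ± 1.71 CPM in cytosol libraries (SD, n = 4 each) and its groups did not overlap (2.29 ± 0.37, SE, adjusted p = 0.000742). Igfbp5 reached 31.3 and 66.9 CPM in membrane polysomes and 12.3 and 46.8 CPM in membrane monosomes, against 4.62 and 6.32 CPM in cytosol polysomes and 2.72 and 9.53 CPM in cytosol monosomes. The second replicate was the higher in all 4 of these groups, and the fractions did not overlap (2.73 ± 0.52, SE, adjusted p = 0.00213). Irs1 had 18.8 and 17.5 CPM in membrane polysomes and 21.8 and 19.9 CPM in membrane monosomes, against 10.8 and 5.49 CPM in cytosol polysomes and 10.9 and 11.4 CPM in cytosol monosomes. Its groups did not overlap, but its log2 fold change of 1.03 ± 0.29 (SE, adjusted p = 0.0231) passed narrowly. Leaving out either membrane polysome replicate, the first membrane monosome replicate, the second cytosol polysome replicate or either cytosol monosome replicate gave an adjusted p of 0.0531 to 0.0888 in these 6 fits. Between polysome libraries alone the value was 1.24 (adjusted p = 0.0883), and in a fit of the differentiating libraries alone 0.94 (adjusted p = 0.0548). Igf1r (3.16, adjusted p = 0.00111), Insr (3.36, adjusted p = 0.000613) and Igfbp5 (3.21, adjusted p = 0.00250) passed between polysome libraries alone.

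The ligands could be measured between the fractions in differentiating cells, where they had reads. Igf1 had 14.3 and 16.1 CPM in membrane polysomes and 6.24 and 7.89 CPM in membrane monosomes, against 3.01 and 3.99 CPM in cytosol polysomes and 9.86 and 5.45 CPM in cytosol monosomes. The polysome libraries separated the fractions and the monosome libraries did not. Over all 8 libraries its log2 fold change was 0.99 ± 0.44 (SE, adjusted p = 0.132), which passed with the replicate block (0.97, adjusted p = 0.0150) and between polysome libraries alone (2.16, adjusted p = 0.0409). Igf2 had 13.7 and 5.06 CPM in membrane polysomes and 5.13 and 1.36 CPM in membrane monosomes, against 4.01 and 0.499 CPM in cytosol polysomes and 7.48 and 3.18 CPM in cytosol monosomes. Its first replicate was the higher in all 4 groups, and neither the value over both gradient parts (0.68 ± 0.69, adjusted p = 0.538) nor that between polysomes alone (2.18, adjusted p = 0.167) passed.

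Igf2r had 2.21, 2.67, 1.78 and 2.18 CPM in the differentiating membrane libraries, against 0.803, 0.998, 0.680 and 0.908 CPM in the cytosol libraries. The groups did not overlap, but the cytosol libraries held 2 to 6 reads each, and the pooled ratio of 3.11 (1.70 to 6.08) came with an adjusted p of 0.120. Igfbp4 had 4.01, 11.7, 6.02 and 14.2 CPM in membrane libraries and 2.01, 5.82, 10.2 and 10.9 CPM in cytosol libraries, which overlapped (0.46 ± 0.62, SE, adjusted p = 0.656). Between polysome libraries alone neither Igf2r (adjusted p = 0.241) nor Igfbp4 (1.03, adjusted p = 0.539) passed. With the replicate block the count in differentiating cells was 5 higher, with Igf1 added, where 25.1% of all genes were higher and 18.3% lower. The median over all genes was 0.07, which DESeq2 size factors moved to -0.04. Nuclear RNA markers were also higher in membrane libraries, with summed levels of 7.89 to 167 CPM against 2.01 to 12.7 CPM in differentiating cells. In proliferating cells the sums were 20.7 to 447 CPM against 1.77 to 24.5 CPM. Of these markers, Neat1 had 424 and 249 CPM in proliferating membrane monosomes and 43.3 and 17.1 CPM in membrane polysomes. Malat1 had 23.0 and 18.4 CPM against 2.20 and 3.67 CPM. The part of nuclear RNA in the values of the 8 genes, Irs1 among them, was not tested.

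Ordered by the mean of the 2 libraries, the 8 groups fell into steps that differed from gene to gene. Igf1 averaged 15.2 CPM in differentiating membrane polysomes, above every other group, then 7.65 CPM in differentiating cytosol monosomes and 7.07 CPM in membrane monosomes, whose replicates overlapped, and 3.501 CPM in differentiating cytosol polysomes, with every proliferating group lower. Igf2 averaged 9.38 CPM in differentiating membrane polysomes, and its 4 differentiating groups overlapped with their neighbours in the order. For Igf1r the order began with proliferating membrane polysomes at 37.4 CPM and differentiating membrane polysomes at 27.3 CPM, which overlapped. The membrane group with the lowest mean, proliferating membrane monosomes at 15.1 CPM, did not overlap the highest cytosol group, proliferating cytosol monosomes at 6.57 CPM. Differentiating membrane monosomes, with replicates of 7.80 and 22.6 CPM, did overlap that cytosol group, with replicates of 4.96 and 8.18 CPM. Insr was highest in proliferating membrane polysomes, at 20.5 CPM, without overlap with the next group, differentiating membrane polysomes at 13.7 CPM. Irs1 alone of the 8 was highest in proliferating membrane monosomes, at 53.5 CPM, which did not overlap proliferating membrane polysomes at 26.7 CPM. Igfbp5 was highest in differentiating membrane polysomes, at 49.1 CPM, where its replicates of 31.3 and 66.9 CPM overlapped those of the next group, differentiating membrane monosomes at 29.5 CPM.

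**Figure D2:**
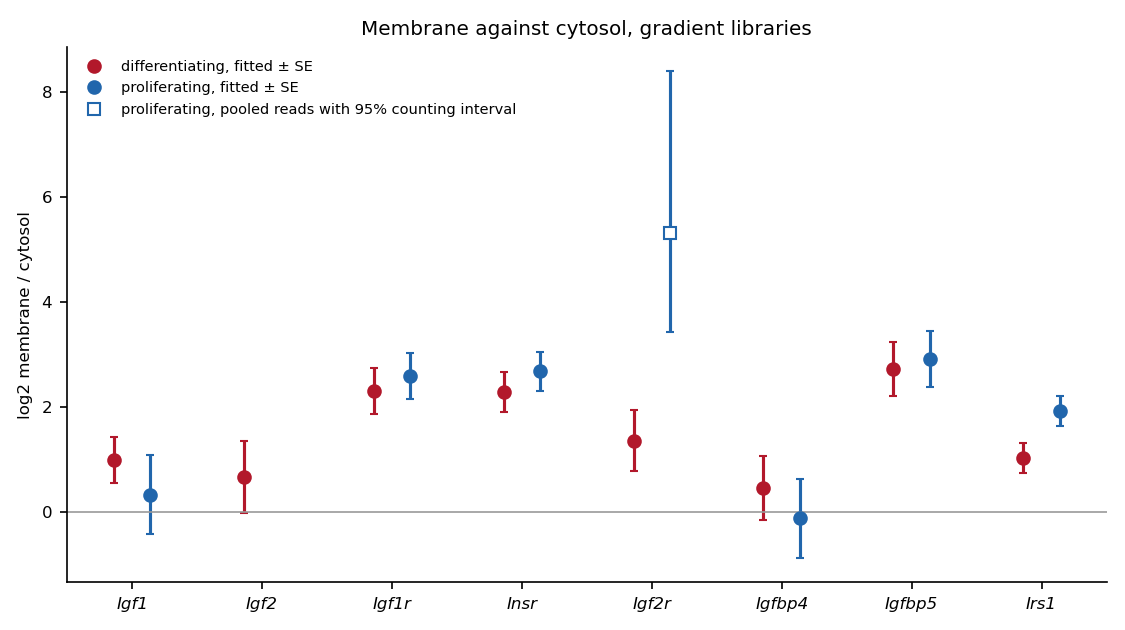
The plot of membrane over cytosol log2 fold changes gives each gene's value with its SE in differentiating cells, then in proliferating cells, from the 16 gradient libraries, and marks pooled ratios of genes with 3 reads or fewer on a side. Igf1r, Insr and Igfbp5 lie between 2.29 and 2.92 in both states, and Irs1 lies at 1.03 in differentiating and 1.92 in proliferating cells.

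Whether the partition differed between the states was tested directly as the difference of the 2 log2 fold changes. No gene of the 11176 passed with edgeR (0%), 669 were below 0.05 before adjustment, 14 passed with DESeq2 and 514 with the replicate block. Irs1, whose membrane excess was the smaller in differentiating cells, differed by -0.89 ± 0.40 (SE, adjusted p = 0.816, unadjusted p = 0.0449). Igf2r had an adjusted p of 0.683, and of 0.0482 with the replicate block, where 0.725% of all genes were higher and 3.87% lower. Its proliferating cytosol side held 2 reads, so no size is given. Igf1r (-0.29), Igfbp5 (-0.19) and Insr (-0.39) had small differences with an adjusted p of 1.00, so a change of their partition with the state was not detectable.

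Polysomes carry mRNA with several ribosomes and monosomes mRNA with a single ribosome. In the edgeR fit without the replicate block none of the 8 genes passed between polysomes and monosomes in any of the 4 combinations of fraction and state, where 12.6% and 11.3% of all genes were higher and lower in the differentiating cytosol, 2.05% and 1.91% in the differentiating membrane, 11.5% and 12.8% in the proliferating cytosol, and 0.358% and 0.438% in the proliferating membrane. Before adjustment 3 of the 8 genes were below 0.05 in the proliferating cytosol, 3 in the proliferating membrane, 1 in the differentiating cytosol and 0 in the differentiating membrane. Of all 11176 genes 4153, 1572, 4067 and 2238 were below 0.05 in the same order. DESeq2 called Insr as lower in polysomes of the differentiating (adjusted p = 0.0335) and of the proliferating cytosol (adjusted p = 0.0492). DESeq2 size factors moved the split of all genes to 1124 higher and 1537 lower (1409 and 1264 before) in the differentiating cytosol, 134 and 253 (229 and 213 before) in the differentiating membrane, and 18 and 73 (40 and 49 before) in the proliferating membrane. They moved the median of all genes to 0.09 from 0.24 and to 0.04 from 0.22 in these 2 membrane comparisons, and no sign of the 8 genes changed with them. The spread between replicates was wide: Igf1r in differentiating membrane polysomes had 16.6 and 38.0 CPM, against 7.80 and 22.6 CPM in membrane monosomes. Within each replicate the polysome value was the higher. With the replicate number as a block, 4 genes passed as higher in polysomes than in monosomes of differentiating membranes. These were Igf1 (1.11 ± 0.43, SE, adjusted p = 0.0459), Igf2 (1.61 ± 0.56, adjusted p = 0.0267), Igf1r (0.89 ± 0.30, adjusted p = 0.0229) and Igfbp5 (0.87 ± 0.29, adjusted p = 0.0186), where 20.3% of all genes were higher and 9.37% lower.

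In proliferating membranes, with the block, Igf1r (1.22 ± 0.29, SE, adjusted p = 0.00191) and Insr (1.00 ± 0.34, adjusted p = 0.0304) were higher in polysomes, while Irs1 was lower (-1.02 ± 0.25, adjusted p = 0.00283), where 16.8% of all genes were higher and 6.25% lower. Irs1 had 32.9 and 20.5 CPM in those polysomes, against 61.9 and 45.1 CPM in the monosomes. Its groups did not overlap, and its direction was opposite to that of the receptors whose signal it relays. In the cytosol the direction turned for the receptors. With the block, Igf1r (-1.49 ± 0.42, adjusted p = 0.00331), Igfbp4 (-1.86 ± 0.69, adjusted p = 0.0251), Insr (-1.48 ± 0.55, adjusted p = 0.0232) and Irs1 (-0.92 ± 0.30, adjusted p = 0.0112) were lower in polysomes than in monosomes of the proliferating cytosol, where 23.7% of all genes were higher and 24.3% lower. The Igfbp4 value lay mainly in the first replicate, with 6 polysome and 20 monosome reads, against 3 and 3 in the second. In the fit without the block it ranged from -2.84 to 0.16 with single libraries left out. In the differentiating cytosol, Igfbp4 (-1.59 ± 0.49, adjusted p = 0.00696) and Insr (-1.64 ± 0.59, adjusted p = 0.0202) were lower, where 24.6% were higher and 21.5% lower.

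Insr illustrates the turn. It had 17.8 and 23.1 CPM in proliferating membrane polysomes against 10.7 and 9.75 CPM in membrane monosomes, but 1.69 and 0.963 CPM in cytosol polysomes against 4.96 and 2.65 CPM in cytosol monosomes. The difference of these polysome log2 fold changes, membrane minus cytosol, was 2.49 in the fit without the block (adjusted p = 0.0537) and 2.48 ± 0.64 with it (SE, adjusted p = 0.00306). For Igf1r the difference in proliferating cells was 2.81 without the block (adjusted p = 0.0636) and 2.71 ± 0.51 with it (adjusted p = 6.86e-05). Without the block 6.19% of all genes were higher and 1.1% lower in this difference in proliferating cells, and 3.63% and 0.465% in differentiating cells. With the block these shares were 18.1% and 10.4% in proliferating cells and 12.4% and 6.33% in differentiating cells. The genes passing with the block were Igf1r, Igfbp4, Igfbp5 and Insr in proliferating cells, and Igf1, Igf2, Igf1r and Insr in differentiating cells, all higher. The unblocked differences of Igf1r and Insr passed without either differentiating membrane monosome replicate (adjusted p 0.0456 and 0.0465 for Igf1r, 0.0433 and 0.0441 for Insr). Cytosol values of the receptors rested on few reads, with 6 to 37 reads per proliferating library for Igf1r and Insr.

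**Figure D3:**
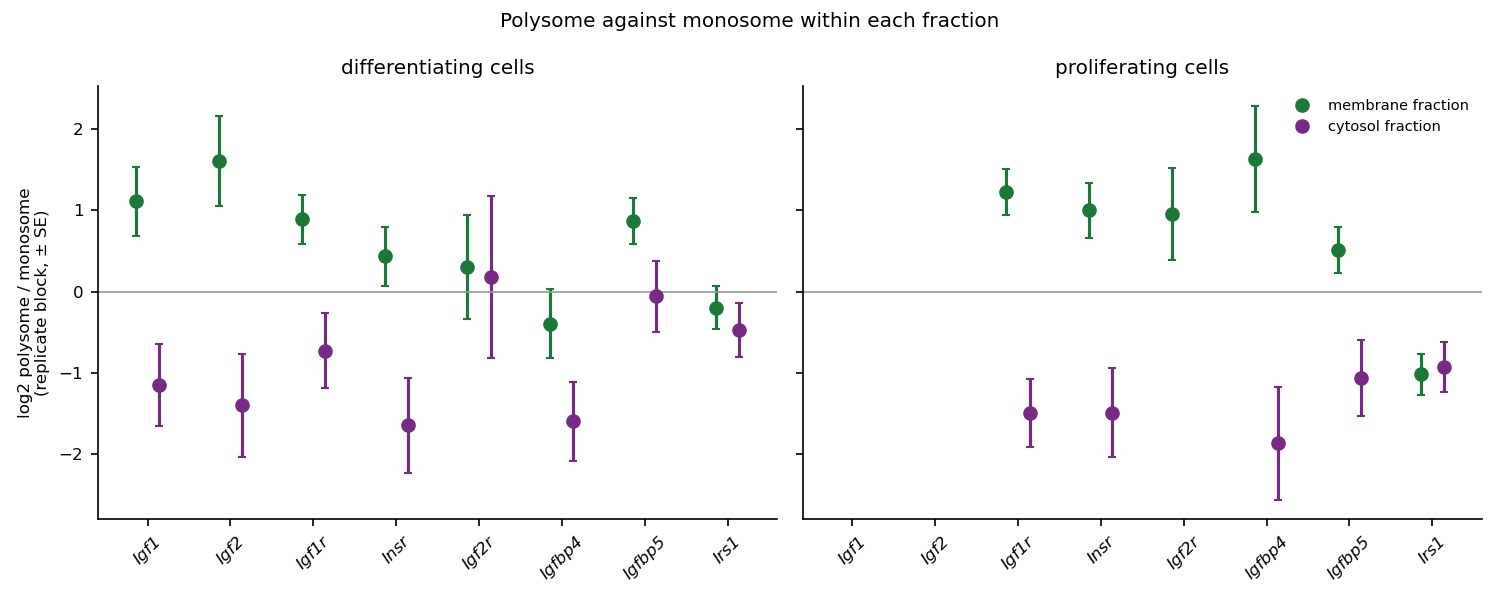
The plot of polysome over monosome log2 fold changes shows each gene with its SE from the fit with the replicate block, in the membrane and in the cytosol of differentiating and of proliferating cells. Igf1r and Insr lie above 0 in the membrane and below 0 in the cytosol of proliferating cells, at 1.22 and 1.00 against -1.49 and -1.48.

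The whole fractions of proliferating cells that had not been exposed to puromycin for 30 or 60 min gave a second measurement of the partition, in 3 membrane and cytosol pairs extracted with TRIzol, whereas the gradient RNA was extracted with phenol and chloroform. Igf1r, Insr, Igfbp5 and Irs1 were each higher in the membrane, where 31.8% of 9747 genes tested were higher and 30% lower. Of these 4 Igf1r had the largest value, with a log2 fold change of 4.48 ± 0.25 (SE, adjusted p = 9.22e-09) and a pooled ratio of 23.0. Insr followed at 3.79 ± 0.32 (adjusted p = 5.70e-07) and Igfbp5 at 3.31 ± 0.35 (adjusted p = 3.49e-06), and Irs1 was the lowest at 1.33 ± 0.33 (adjusted p = 0.00351). Igf2r had 108 membrane reads and 2 cytosol reads, a pooled ratio of 39.2 (10.6 to 328, adjusted p = 2.18e-05), too few in the cytosol to count it with the others. Igf1, Igf2 and Igfbp4 did not pass the filter. Igf1 had 18 reads in the membrane and 2 in the cytosol, a pooled ratio of 6.54 (1.56 to 58.1), but its pairs differed. The untreated pair had 8 membrane and 0 cytosol reads, the 0 min pair 10 and 0, and the other whole-fraction pair 0 and 2. Igfbp4 had 20 and 11 reads, a ratio of 1.32 (0.603 to 3.05) whose interval includes 1.

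Puromycin releases nascent chains and with them ribosomes from mRNA, so the exposure series asks whether the membrane share of an mRNA depends on its translation. For Igf1r the ratio of membrane to cytosol CPM was 19.02 (10.8 to 37.1) in untreated cells, 24.3 (13.4 to 49.3) at 0 min, 3.74 (2.82 to 4.99) at 30 min and 6.11 (4.21 to 9.13) at 60 min. The intervals of the untreated and 0 min pairs lay above those of both exposed pairs. The reads behind these ratios were 482, 291, 195 and 239 in the membrane and 12, 11, 69 and 32 in the cytosol, so membrane reads were fewer and cytosol reads more after exposure. Insr had ratios of 9.21 (5.29 to 17.5), 14.8 (7.84 to 31.5), 3.83 (2.74 to 5.43) and 3.21 (2.23 to 4.71) in the same order. Igfbp5 had 5.56 (2.03 to 21.3), 10.9 (5.88 to 22.3), 2.25 (1.55 to 3.30) and 3.49 (2.18 to 5.84). For both genes the exposed pairs had the lower ratios, and for each the membrane remained above the cytosol, since no interval reached 1.

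Igf2r had 25, 33, 20 and 37 membrane reads and 0, 1, 13 and 4 cytosol reads from untreated to 60 min, and its ratio at 30 min was 2.03 (0.963 to 4.45). Irs1 had the opposite order. Its ratios were 2.98 (1.78 to 5.30) in untreated cells, 1.57 (0.991 to 2.53) at 0 min, 5.39 (3.48 to 8.62) at 30 min and 3.84 (2.75 to 5.47) at 60 min, so the exposed pairs had the higher ratios. In the membrane libraries of this series the nuclear RNA marker Neat1 had 124, 180, 249 and 498 CPM, and Malat1 had 2.30, 2.62, 2.39 and 2.08 CPM. The part of nuclear RNA in the Irs1 ratios was not tested. Igfbp4 had 5, 11, 13 and 5 membrane reads and 4, 4, 11 and 4 cytosol reads. Igf1 had 8, 10, 7 and 4 membrane reads and 0, 0, 7 and 4 cytosol reads, and Igf2 had at most 4 reads in any of these 8 libraries.

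The slope of the membrane to cytosol ratio per 30 min of exposure passed for none of the 10465 genes tested (0%), while 2610 were below 0.05 before adjustment and 1194 passed with DESeq2. The slope was -1.01 ± 0.30 for Insr (SE, adjusted p = 0.111), -1.05 ± 0.45 for Igf1r (adjusted p = 0.221), -0.75 ± 0.42 for Igfbp5 (adjusted p = 0.312) and 0.43 ± 0.33 for Irs1 (adjusted p = 0.440). The ratios of Igf1r and Igfbp5 were lowest at 30 min and not at 60 min. Without the 30 min pair the slope passed for Igf1r (-0.96, adjusted p = 0.00188) and Insr (-0.98, adjusted p = 0.00274), and without the 60 min pair for Igf1r (-2.62, adjusted p = 7.64e-07), Insr (-1.69, adjusted p = 0.0100), Igfbp5 (-2.09, adjusted p = 0.00779) and Igf2r (adjusted p = 0.0250). When the 30 and 60 min pairs were set against the untreated and 0 min pairs, the ratio was lower for Igf1r (-2.29 ± 0.39, SE, adjusted p = 0.000155), Insr (-1.80, adjusted p = 0.00208), Igfbp5 (-1.80, adjusted p = 0.0109) and Igf2r (adjusted p = 0.0429, with 1 cytosol read in the unexposed pairs). Irs1 (0.98, adjusted p = 0.0795) and Igfbp4 (-0.10, adjusted p = 0.954) did not pass. These 4 of the 6 genes tested stand beside 19.9% of all genes that were lower and 18% that were higher under this contrast. The untreated and 0 min libraries also belong to the unexposed pairs described above, so the 2 comparisons are not independent.

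**Figure D4:**
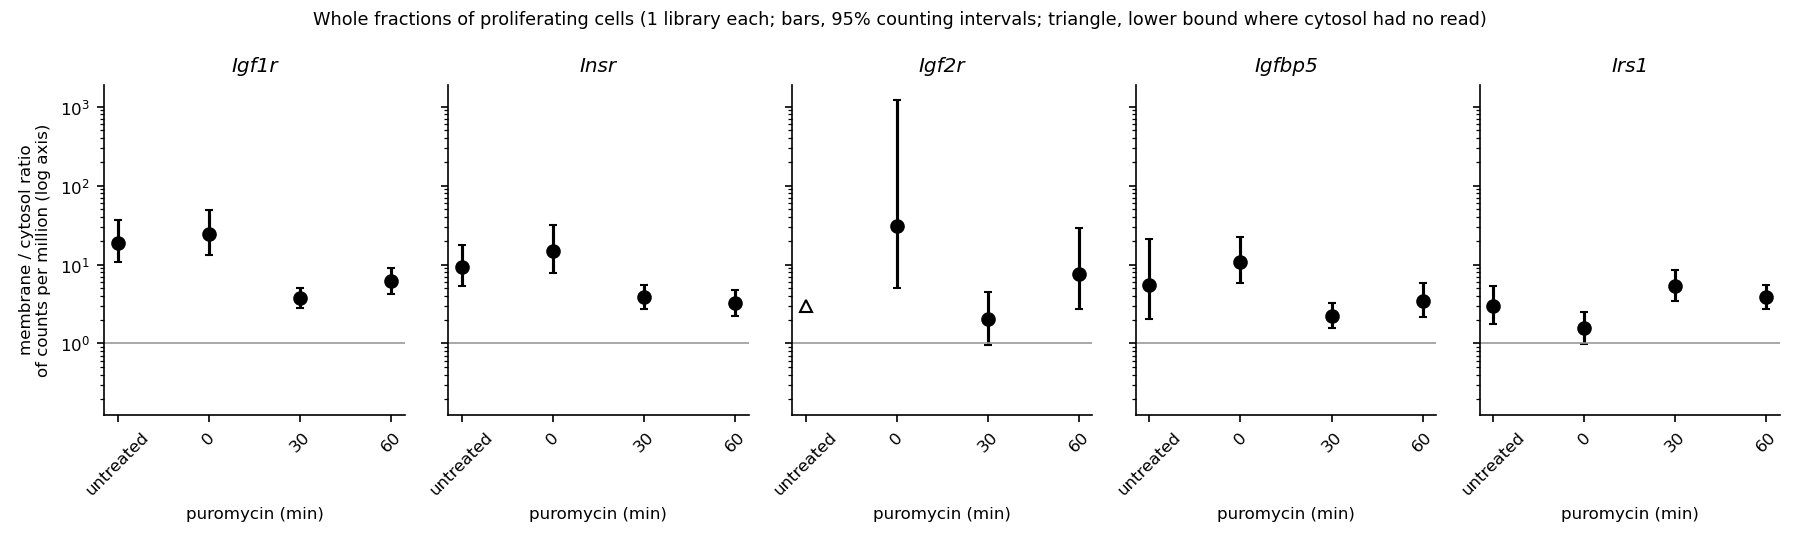
The plot of membrane over cytosol CPM ratios shows untreated cells and 0, 30 and 60 min of puromycin on a log axis with 95% exact intervals that cover counting error only, and 1 library per fraction and exposure. Igf1r, Insr and Igfbp5 have lower ratios at 30 and 60 min than in untreated cells and at 0 min, while Irs1 has higher ones.

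Each gene's reads were spread over several poly(A) sites, given here in mm9 coordinates as the deposited table lists them. Igf1r, on the plus strand of chromosome 7, had 58.9% of its 3045 reads at position 75378554 and 17.3% at position 75371488, which lies 7066 nt upstream. Insr, on the minus strand of chromosome 8, used 2 sites nearly evenly, with 48.4% of 1773 reads at position 3153234 and 43.9% at position 3150933, 2301 nt downstream. Irs1, on the minus strand of chromosome 1, had 54.9% of 2649 reads at position 82229680 and 27.0% at position 82233452, 3772 nt upstream. In the whole and puromycin libraries the order of these Irs1 sites was the reverse, with 31.5% at position 82229680 and 39.1% at position 82233452 in the membrane, and 23.6% and 54.7% in the cytosol. Igfbp5, also on the minus strand of chromosome 1, had 35.6% of 2372 reads at position 72905720, and 4 of its sites held 9.91% or more. In contrast, Igf2 on chromosome 7 had 94.2% of its 226 reads at position 149836673, Igfbp4 on chromosome 11 had 85.3% of 443 reads at position 98913969, and Igf2r on chromosome 17 had 77.6% of 348 reads at position 12875277. Igf1, on the plus strand of chromosome 10, had 183 of its 421 reads at position 87394381 and 148 at position 87399787, 5406 nt downstream. Some reads lay at sites listed on the other strand and stay in the gene sums: 31 of Igf1r, of which 8 were among its 61 reads in the differentiating cytosol, 6 of Igfbp4 and 2 of Irs1.

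Counted site by site, 19 sites of the 8 genes passed the filter, of 20610 sites in all. In differentiating cells 9 of the 19 were higher in membrane libraries, where 9.55% of all sites were, and in proliferating cells 13 of the 19 were higher, where 16.4% of all sites were. None of the 19 was lower. With the replicate block 11 were higher in differentiating and 14 in proliferating cells. The block added positions 82229680 (adjusted p = 0.000161) and 82233452 (adjusted p = 0.0450) of Irs1 in differentiating cells. In proliferating cells it added position 72904636 of Igfbp5 (adjusted p = 0.0413). A site could pass the filter through membrane libraries alone, so these counts only describe where the reads lay. Of Igf1r, all 3 sites tested were higher in the membrane in both states, with log2 fold changes of 3.43 at position 75371488 and 2.42 at position 75378554 in differentiating cells, and of 4.02 and 1.99 at the same positions in proliferating cells. Both Insr sites passed in both states, the distal site at 2.75 and the proximal site at 1.78 in differentiating cells, and at 3.35 and 2.13 in proliferating cells. The 4 main sites of Igfbp5 passed in both states as well. Of Irs1, 2 sites passed in proliferating cells and 0 in differentiating cells without the block, and with it the same 2 sites passed in both states. Whether the states differ at these sites was not tested. In differentiating cells 6 of the 9 calls, 2 each at Igf1r, Insr and Igfbp5, were lost without 1 library (adjusted p 0.0503 to 0.326), namely either cytosol polysome or cytosol monosome replicate or the second membrane polysome or membrane monosome replicate. In proliferating cells 3 of the 13, at positions 72906552 and 72908027 of Igfbp5 and 82233452 of Irs1, were lost without 1 of the 8 libraries (adjusted p 0.0535 to 0.148).

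Use of the distal site was compared as the ratio of the reads of a gene's 2 main sites, which could be done for 5 of the 8 genes among 4553 site pairs, and none of the 5 passed in any comparison. In proliferating cells the distal site of Igf1r took 72.3% (68.4 to 76.0) of the pair's reads in membrane libraries and 88.2% (78.1 to 94.8) in cytosol libraries, a log2 ratio of -1.97 ± 0.75 (SE, adjusted p = 0.375, unadjusted p = 0.0163). In differentiating cells it took 88.0% (84.6 to 90.9) in membrane and 93.0% in cytosol libraries, so the proximal site had its largest share in proliferating membranes. For Insr the distal site took 57.4% (51.6 to 63.1) of the pair's reads in differentiating libraries and 32.5% (28.1 to 37.1) in proliferating libraries, with a log2 ratio of 1.22 ± 0.59 (SE, adjusted p = 0.383, unadjusted p = 0.0511). By fraction it was 59.7% in membrane and 39.4% in cytosol libraries of differentiating cells, and 34.0% in membrane and 18.6% in cytosol libraries of proliferating cells. In pooled reads the share of the distal Insr site was thus the higher in membrane libraries of both states, by a margin that did not pass. Same-numbered libraries went the other way in the first differentiating monosome pair, at 25.0% in membrane and 53.8% in cytosol, and in the first proliferating polysome pair, at 29.5% in membrane and 30.0% in cytosol. The whole membrane fractions of proliferating cells in the puromycin series had distal Insr shares of 57.1% untreated, 58.2% at 0 min, 63.2% at 30 min and 48.2% at 60 min, all above the proliferating gradient share. The cytosol fractions had 61.5%, 14.3%, 40.9% and 56.0% in the same order. The cytosol share was thus the higher untreated and at 60 min, and the lower at 0 and 30 min. The background of site pairs with a higher and a lower distal share was 0.022% and 0% between the fractions in differentiating cells, 0.483% and 0.0439% between the fractions in proliferating cells, and 1.08% and 0.439% between the states. The distal share of Irs1 was 76.4% in membrane and 77.4% in cytosol libraries of differentiating cells, and 76.7% in membrane and 62.1% in cytosol libraries of proliferating cells. For Igfbp5 these were 45.3% and 50.0% in differentiating cells, and 49.2% and 34.4% in proliferating cells.

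**Figure D5:**
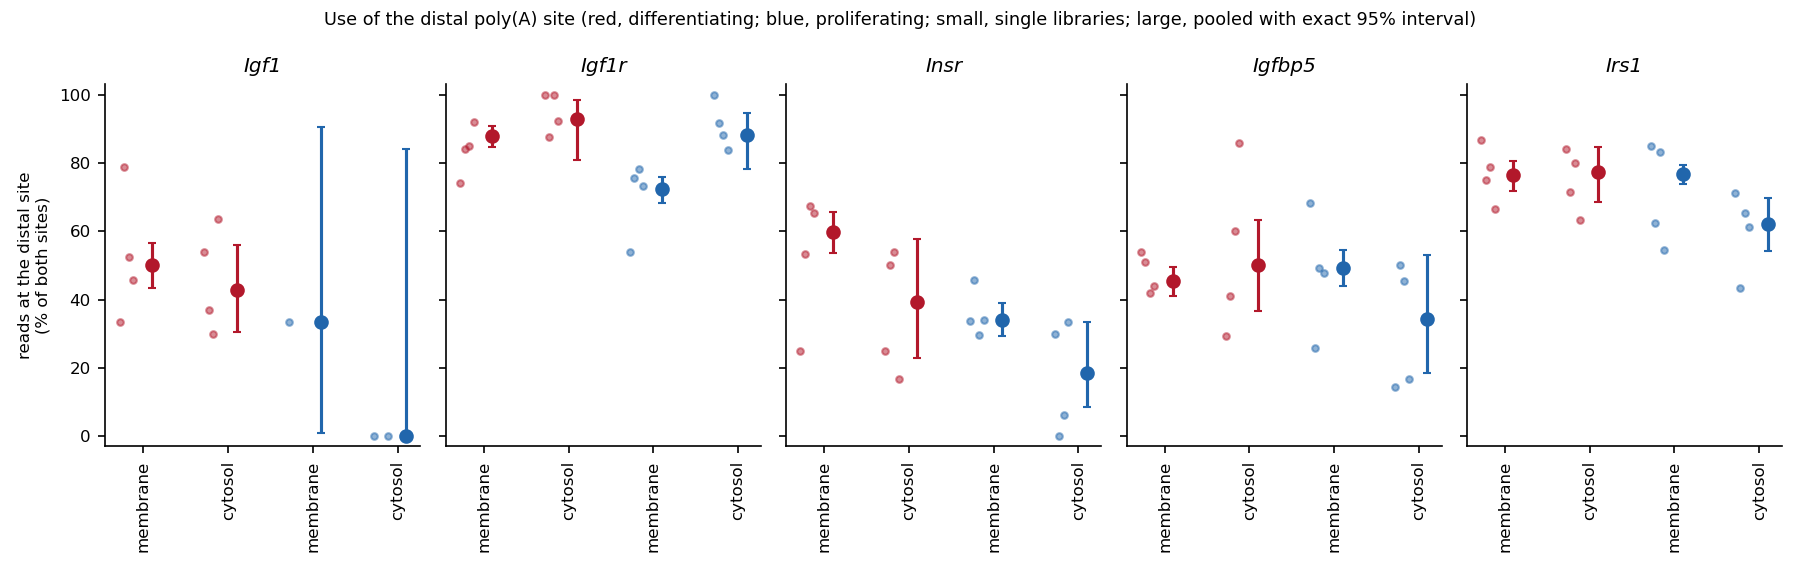
The plot of distal site use gives the share of reads at the downstream one of a gene's 2 main sites, in percent with 95% exact intervals, in membrane and cytosol libraries of differentiating and then of proliferating cells. The Insr share is 59.7% and 39.4% in differentiating and 34.0% and 18.6% in proliferating membrane and cytosol libraries, and none of the differences passed the test.

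RNA-seq of proliferating cells, with 1 library per fraction and no test, gave the 7 genes in a further fraction, the insoluble material. Igf1r had 186 CPM in the membrane, 270 CPM in the insoluble and 14.9 CPM in the cytosol library, from 1215, 1157 and 66 reads. The membrane to cytosol ratio was 12.5 (9.73 to 16.2), and the insoluble library was above both. Insr had 63.0, 102 and 6.79 CPM in the same order, a membrane to cytosol ratio of 9.28 (6.40 to 13.9), and Igf2r had 80.4, 98.3 and 3.62 CPM, a ratio of 22.2 (13.5 to 39.1). For all 3 receptors the insoluble library was the highest and the cytosol the lowest. Of all 8001 genes with 20 or more reads in each of the 3 libraries, 33.4% were more than 2-fold higher in the insoluble than in the cytosol library (median log2 ratio 0.31). In the membrane 8.99% were more than 2-fold higher than in the insoluble library (median -0.18). Igfbp5 had 3.83, 12.8 and 0.906 CPM, with only 4 cytosol reads. Igf1 (63.6, 40.2 and 26.7 CPM) and Igfbp4 (67.3, 31.0 and 29.2 CPM) had a different order, with the membrane library highest and membrane to cytosol ratios of 2.38 (1.94 to 2.95) and 2.30 (1.89 to 2.83). Of those 8001 genes 20.9% were more than 2-fold higher in the membrane, and so were all 5 of the 8 genes that met this minimum. RNA-seq reads were counted only in the untranslated regions labelled aUTR and cUTR, and CPM grow with the length of these regions. They are therefore compared here between fractions and not between genes.

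Among other genes of the pathway, several for secreted proteins were higher in membrane libraries. Of 14 other ligands, binding proteins and carriers 7 were tested, and 5 were higher and 0 lower in membrane libraries in differentiating cells (median log2 fold change 1.44) and in proliferating cells (median 2.43), beside the medians of all genes given above and shares of all genes of 14.2% higher and 5.49% lower in differentiating and 23.2% and 11.5% in proliferating cells. With the replicate block 5 were higher in both states and 1 was lower in proliferating cells, where 3754 genes were higher and 2519 lower. Igfbp6, a binding protein with a preference for IGF2, was higher by 1.26 (adjusted p = 0.0220) in differentiating and by 2.56 (adjusted p = 0.000123) in proliferating cells. Htra1, a secreted protease that cleaves IGF-binding proteins, was higher by 2.49 and 3.22, Igfbp2, a further binding protein, by 2.28 and 3.11, and Igfbp7, which is related to the binding proteins, by 1.99 and 1.77, in differentiating and in proliferating cells. The fifth was Stc2, named here after its value was seen. Between the states, Igfbp6 (-0.70, adjusted p = 0.0387) and Igfbp7 (-1.07, adjusted p = 0.0208) were lower in differentiating cells, the opposite of Igfbp4, and Pappa2 and Ins2 were higher. Both had mean levels under 2 CPM over the 16 libraries and entered the test only through differentiating libraries, and Ins2 had 0 reads in every proliferating gradient library. Pappa2 had 0 reads in every proliferating membrane gradient library. Beside the 5 higher genes only Pappa2 and Ins2 were tested, so the lower call with the block has a side without reads and gives no size.

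Of 22 signalling genes downstream of the receptors 19 were tested, and 1 was higher and 1 lower in membrane libraries of differentiating cells and 3 higher and 1 lower in those of proliferating cells (median 0.14). The shares of all genes, given above, were 14.2% higher and 5.49% lower in differentiating and 23.2% and 11.5% in proliferating cells. Foxo1, a transcription factor inhibited by the pathway, was higher in membrane libraries of differentiating cells (1.15, adjusted p = 0.0284) and of proliferating cells (1.33, adjusted p = 0.00705). Pik3r1 (1.23, adjusted p = 0.0280) and Pik3r3 (1.08, adjusted p = 0.00859), regulatory subunits of phosphoinositide 3-kinase, were higher in proliferating cells. Between the states, Akt2 (0.56, adjusted p = 0.0267), a kinase of the pathway, the adaptor Shc1 (0.42, adjusted p = 0.0420) and the lipid phosphatase Inppl1 (0.87, adjusted p = 0.0187) were higher in differentiating cells, and Pik3cb (-0.90, adjusted p = 0.0324), a catalytic subunit, was lower. Of 10 other receptor-level genes 7 were tested. Furin, the protease that processes the receptor precursors, was the 1 that was higher in differentiating membranes (2.45, adjusted p = 0.00548). In proliferating membranes Furin (2.11, adjusted p = 0.00538), M6pr and Ptprf were higher and the sorting adaptor Gga1 was lower (-0.72, adjusted p = 0.0371), with M6pr and Ptprf named after their values were seen. These 3 higher and 1 lower of 7 stand beside the same 23.2% and 11.5% of all genes, and the 1 higher in differentiating membranes beside 14.2%. Ptprf had 0.221 to 1.61 CPM in the cytosol gradient libraries and entered the test only through membrane libraries. Its call therefore only describes where its reads lay and adds nothing to this count.

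H19, the noncoding RNA imprinted beside Igf2, was higher in differentiating cells along with Igf2, by 4.37 ± 0.42 on the log2 scale (SE, adjusted p = 8.81e-06). It had 13530.5 to 21991.3 CPM in differentiating monosomes but 994 to 1656 CPM in differentiating polysomes. In proliferating libraries it had 35.8 to 1016 CPM, which overlapped the differentiating polysomes. Cdkn1c, an imprinted cell cycle inhibitor, was also higher (3.17 ± 0.64, adjusted p = 0.00218), while Igf2bp2, which encodes a protein that binds Igf2 mRNA, did not pass (-0.21, adjusted p = 0.809). Cdkn1c had 0.272 to 29.1 CPM in differentiating and 0.221 to 2.53 CPM in proliferating libraries, which overlapped. It entered the test only through differentiating libraries. H19 and Cdkn1c were 2 of 3 tested in a list of 7, where 16.3% of all genes were higher. With Cdkn1c among them, this count only describes where the reads lay. Over the 16 gradient libraries the log2 CPM of Igf1 and Igf2 correlated with a Pearson r of 0.898, those of Igf1r and Insr with 0.919, and those of Igf2 and Irs1 with -0.149. The libraries share cell state and fraction, so these are descriptions only. The genes most like Igf2 over these libraries were Art1 (0.982), Dhrs7c (0.966) and Cacna1s (0.964), those most like Igf1 were Fxyd1 (0.951), Ly6c2 (0.947) and Adamts16 (0.945), and those most like Igf1r were Ikbip (0.985), Sec63 (0.966) and Atp2c1 (0.964). Insr was closest to Clcn4-2 (0.985), Sun1 (0.976) and Fut11 (0.975), Igfbp5 to Man1c1 (0.968), Igf2r to Rtn4 (0.936), Igfbp4 to Htra3 (0.899) and Irs1 to Smcr8 (0.957).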

How the data were processed

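The authors deposited a table of read counts per poly(A) site for 26 3'READS+ libraries and a table of RNA-seq read counts for 3 libraries, both unnormalized whole numbers per the file headers and values. The RNA-seq counts are given for the aUTR and cUTR regions of each gene, and both regions were summed. The submitters' processing notes name cutadapt, Bowtie2, STAR 2.5.2 and the mouse build mm9. The counting of reads, and its use of strand, are not given in the sources used here. The deposited site counts were summed per gene symbol, leaving out 651 positions listed under more than 1 symbol, which held 0.262% of reads and no site of the 8 genes.

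Gene sums were tested with edgeR 4.0.16 in R 4.3.3 (filterByExpr, TMM, robust quasi-likelihood F test, two-sided, Benjamini-Hochberg at 0.05 over all genes tested), for the 16 gradient libraries in a single fit of 8 groups. Each SE is the absolute log2 fold change divided by the square root of F. Puromycin and unexposed whole fractions were fitted with 1 term per membrane and cytosol pair. Where a side had 3 reads or fewer, the ratio of pooled CPM with its exact 95% interval replaces the fitted fold, and a difference of folds that rests on such a side is given by its p alone. RNA-seq values are CPM, with exact intervals for counting error only. Replicates are checked as separate libraries: their counts differed beyond sampling noise (chi-square per degree of freedom 43.8 to 103).

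The labels number the replicates without saying what a number stands for. The deviations of same-numbered libraries from their group means correlated at 0.477 to 0.725 over 11176 genes, so the numbers were treated as pairing, on the data alone, in an alternative fit with replicate number within cell state as a block.

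The members and gene lists were chosen with earlier results of these data known. All 8 genes are named; of the other pathway lists, at most 4 genes of the highest mean CPM and any called gene with a mean of at least 10 CPM. Some genes of these lists that the rule would name are not reported here. The tests were tried on simulated data, where they recovered most of the large and few of the small changes put in. DESeq2 1.42.0, other filters, size factors and single libraries left out were the alternatives. Polysome libraries alone were an alternative chosen after seeing the data.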

Additional observations from a re-analysis of the deposited data

Results flagged for a closer look

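In 9 cases the effect of a contrast differed between 2 groups of libraries by a test of the difference itself, each in the fit with the replicate number as a block (edgeR, Benjamini-Hochberg over all genes). None of the 9 passed in the edgeR fit of the 16 libraries without the block.

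In 8 of them the polysome over monosome log2 fold change differed between membrane and cytosol. In proliferating cells the membrane minus cytosol difference was 2.71 for Igf1r, 3.495 for Igfbp4, 1.57 for Igfbp5 and 2.48 for Insr. In differentiating cells it was 2.26 for Igf1, 1.61 for Igf1r, 3.00 for Igf2 and 2.07 for Insr. The Igfbp4 difference had an adjusted p of 0.00483 with the block and 0.162 without it, and its proliferating cytosol libraries held 3 to 20 reads. In the Igf2 case the adjusted p was 0.00934 with the block and 0.371 without it. With DESeq2, Igf1r and Insr in proliferating cells had adjusted p values of 0.0246 and 0.0321.

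The remaining case is Igf2r, whose membrane over cytosol log2 fold change in differentiating cells minus that in proliferating cells was -3.49 with the block. Its proliferating cytosol side held 2 reads in 4 libraries, so this fitted value is no bound and the size of the difference has no firm value.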

How the results depend on the processing

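Of the values of the 8 genes under all alternatives, 1486 kept their direction and their side of the threshold, 52 became significant, 42 lost significance and 38 changed sign; the cause was not tested. Counts of called genes moved with the replicate block. With it 6273 genes passed between membrane and cytosol in proliferating cells, 4850 in differentiating cells, 514 for the difference of the states and 6183 between the states. Between polysomes and monosomes 5360 passed in the proliferating cytosol, 2578 in the proliferating membrane, 5158 in the differentiating cytosol and 3315 in the differentiating membrane, and 3180 and 2089 for the differences between the fractions in proliferating and in differentiating cells. At site level 10020 sites passed in proliferating and 6756 in differentiating cells, and 277, 75 and 459 site pairs between the fractions in proliferating cells, in differentiating cells and between the states. For the 8 genes the calls that the block changed between the fractions, between the states and at single sites are given beside those results. Unexposed fractions without the pair term gave 3471.

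DESeq2 called 14 genes for the difference of the states, 370 and 940 between polysomes and monosomes of proliferating and of differentiating membranes, 1262 and 790 for the differences of the fractions, and 1194 for puromycin minutes. Fits of the groups compared alone gave 0, 1389, 0 and 224 for the proliferating membrane, the differentiating cytosol, the differentiating membrane and the difference in differentiating cells. Between the states 2023 passed in polysomes alone. The puromycin contrast called 3960 genes as exposed against not exposed, and the slope 2637 without the 30 min pair and 2615 without the 60 min pair. Site pairs with no limit on distance gave 57, 9 and 128, and a minimum of 50 reads gave 0 in differentiating cells.

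Leaving out single libraries gave 1262 to 2778 genes between polysomes and monosomes in the proliferating cytosol, 0 to 65 in the proliferating membrane, 1493 to 2623 in the differentiating cytosol, 10 to 432 in the differentiating membrane, 387 to 847 and 184 to 425 for the differences in proliferating and in differentiating cells. It gave 1750 to 2617 sites in differentiating cells, and 5 to 27, 0 to 1 and 37 to 62 site pairs.

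Signs changed mainly for values near 0. Between the states, Igf1r was 0.0054 with DESeq2 size factors, 0.0073 with DESeq2 and 0.073 in polysomes alone, and -0.32 to 0.12 with libraries left out. Insr was 0.0044 with DESeq2 size factors, 0.0055 with DESeq2, and -0.25 to 0.040 with libraries left out. Between the fractions in proliferating cells, with libraries left out, Igf1 ranged from -1.30 to 1.85 and Igfbp4 from -1.12 to 0.95, and in polysomes alone Igfbp4 was 1.75. In differentiating cells Igfbp4 ranged from -0.0075 to 0.95. For the difference of the states the ranges were -0.86 to 2.32 for Igf1, -0.76 to 0.12 for Igf1r, -0.48 to 1.62 for Igfbp4 and -0.82 to 0.38 for Igfbp5. Polysome over monosome Igfbp4 in the proliferating cytosol ranged from -2.84 to 0.16, and its puromycin slope was 0.094 without the 60 min pair. In proliferating cells few reads limited the ligands, Igfbp4 and Igf2r: leaving out the first membrane polysome replicate moved Igf1 to -1.30, and leaving out the first cytosol monosome replicate moved Igfbp4 to 0.95.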

Other observations

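Igf1 and Igf2 were read more often by RNA-seq than by 3' end sequencing in proliferating cells. RNA-seq reads were counted over the aUTR and cUTR regions and 3' end reads at poly(A) sites, so the counts are unlike measures. Igf1 had 415 reads in the membrane, 172 in the insoluble and 118 in the cytosol RNA-seq library, whereas no proliferating gradient library held more than 5 of its 3' end reads. Igf2 had 119, 109 and 27 RNA-seq reads in the same order, and the 8 proliferating gradient libraries held 2 of its 3' end reads in all. For Igfbp5 the order was the reverse: it had 25, 55 and 4 RNA-seq reads, and 9 to 280 3' end reads per proliferating gradient library. All these libraries came from cells labelled as proliferating C2C12 cells.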
